A study of Mus musculus with 6 samples.

Results

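The Bcl2 family of apoptosis regulators was followed in myeloid cells of Mll-AF9 leukemic mice that carried or lacked the ribosomal protein Rpl22. The 10 genes were chosen by name: 5 pro-survival members (Bcl2, Bcl2l1, Mcl1, Bcl2a1b and Bcl2a1d), 2 effectors (Bax and Bak1) and 3 BH3-only members (Bcl2l11, Bbc3 and Pmaip1). They were 10 of 29347 genes with at least 1 read after estimated counts were rounded, and all 10 passed the filter on low counts, which kept 16656 genes. RNA was sequenced from CD11b+Gr1+ cells sorted from the spleens of tumor-bearing mice, with 3 libraries labelled Rpl22+/+ and 3 labelled Rpl22-/-. Both groups carried the Mll-AF9 knock-in, which fuses the histone methyltransferase gene Mll to AF9 and drives acute myeloid leukemia, so no library came from cells without the oncogene. The labels gave neither the age of the mice nor the number of animals behind each set of 3 libraries, and the legend of the study names a single mouse for each genotype, so the libraries of a group may be repeats from one animal. The tests therefore measured the spread between libraries, and the genotype cannot be told apart from the particular leukemia sampled.

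Members of this family decide whether the outer mitochondrial membrane stays intact. Pro-survival members hold the effectors Bax and Bak1 in check, and BH3-only members are raised or released by stress and relieve that restraint, after which the effectors open pores and cytochrome c leaves to switch on the caspases. In the myeloid lineage, Mcl1 is a short-lived protein on which neutrophils depend, and Bcl2a1 is a pro-survival protein present in mice as several nearly identical gene copies.

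The libraries held between 35828500 and 102866127 estimated reads, with the smallest number in Rpl22-/- replicate 1. Rpl22+/+ replicate 2 stood apart from the other Rpl22+/+ libraries, with a chi-square per transcript of 239 and 209 against them, where they differed from each other by 22.5. Relative to them it held fewer reads of long transcripts and more of short ones. The median log2 ratio was -0.64 over the 593 genes with an effective length over 6000 bases and 0.26 over the 2180 genes under 1000 bases. Taken in the same way within their group, these ratios were smaller in the Rpl22-/- libraries. They were 0.21 and -0.16 in replicate 1, -0.26 and 0.16 in replicate 2 and 0.05 and -0.01 in replicate 3. Among the members Bcl2 (6745 bases) is the longest and Bcl2a1b (637), Bcl2a1d (683) and Bax (729) are the shortest. The values of Bcl2, Bcl2l1, Bcl2a1b, Bax and Bak1 are given below without Rpl22+/+ replicate 2 too. The part of transcript length in them was not tested. Rpl22 itself fell from 178 ± 48.8 to 73.9 ± 15.8 CPM (counts-per-million; mean ± SD, n = 3 in each group here and below), so its transcripts were reduced but still present in the Rpl22-/- libraries (log2 fold change -1.27 ± 0.25 SE, adjusted p = 0.0106; edgeR). The cells did not have the same marker genes in both groups, where 13.7% of all genes tested were higher and 13.8% lower at any size. Of 14 genes of mature neutrophils 9 were lower in Rpl22-/-, with a summed level of 168000 to 175000 TPM (transcripts-per-million) in Rpl22+/+ and 102000 to 124000 in Rpl22-/-. Ly6g, which encodes the main neutrophil antigen seen by Gr1 antibodies, fell by 3.49 on the log2 scale. Of 10 genes of immature myeloid cells 9 were higher and 1 was lower, and their summed level went from 3010 to 3870 TPM to 27200 to 32600 TPM. Of 10 monocyte genes 4 were lower and 0 higher (1320 to 1520 against 770 to 1190 TPM). Of 6 B cell genes 1, Pax5, was lower and 0 were higher by edgeR (399 to 506 against 286 to 390 TPM). Of 7 T and NK cell genes 6 were lower and 1 was higher, at a low summed level (42.6 to 56.7 against 14.6 to 18.1 TPM), and 5 of 6 erythroid genes were higher (163 to 191 against 1050 to 1920 TPM). In such bulk samples, fewer cells of a type and less RNA per cell cannot be told apart, and the part of cell makeup in the results on the Bcl2 family was not tested.

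The Bcl2a1 copies carried the one genotype difference among the members that passed the test, so the stretch of coding sequence where they differ most is shown first. The 3 expressed copies have open reading frames of 519 bases, which include the stop codon. Bcl2a1b and Bcl2a1d differ at 6 of these bases (98.8% identity), Bcl2a1b and Bcl2a1a at 11 (97.9%) and Bcl2a1d and Bcl2a1a at 7 (98.7%). The first 60 coding bases hold 6 of the 12 positions at which any of the copies differ, and these are in capitals in the following lines (GENCODE vM21 transcripts, 5′ to 3′).
Bcl2a1b: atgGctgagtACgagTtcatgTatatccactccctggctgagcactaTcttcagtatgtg
Bcl2a1d: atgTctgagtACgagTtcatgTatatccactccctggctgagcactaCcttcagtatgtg
Bcl2a1a: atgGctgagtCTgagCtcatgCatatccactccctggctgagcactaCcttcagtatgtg
Of all stretches of 59 bases in the Bcl2a1b transcript, 52.3% also occur in Bcl2a1a or Bcl2a1d. The share was 62.5% for Bcl2a1a and 74.8% for Bcl2a1d. A read from such a stretch has no single source unless the other read of its pair falls where the copies differ. The division of reads between the copies is therefore an estimate, and the values of each copy are uncertain.

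Among the pro-survival members, Bcl2a1b was lower in Rpl22-/- cells. It stood at 7.43, 8.52 and 6.56 CPM in the 3 Rpl22+/+ libraries and at 2.62, 3.33 and 3.00 CPM in the 3 Rpl22-/- libraries. Every Rpl22-/- library was below every Rpl22+/+ library. The log2 fold change was -1.33 ± 0.19 (SE), a 2.51-fold lower level (adjusted p = 0.00339; edgeR). Bcl2a1b lies on chromosome 9 (GRCm39 chr9:89081262-89089880), and it was the only member called at a change of more than 2-fold. Over all genes tested, 8.54% were called lower and 8.93% higher at that size, and 13.8% were lower and 13.7% higher at any size. Of the 10 members 1 was lower and 0 were higher at any size by edgeR. The call on Bcl2a1b held without Rpl22+/+ replicate 2 (-1.26, adjusted p = 0.00315). It was lost when the fit required a fold over 2 (adjusted p = 0.17) and with both libraries numbered 3 left out (log2 fold change -1.42, adjusted p = 0.0759).

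Bcl2a1d, whose protein acts like that of Bcl2a1b, stood at 4.47, 4.89 and 3.77 CPM in Rpl22+/+ and at 2.11, 3.34 and 3.02 CPM in Rpl22-/-. The groups did not overlap, but the difference did not pass the test over all genes (log2 fold change -0.63 ± 0.24, adjusted p = 0.1; edgeR). Bcl2a1a, a further copy that is not among the 10 members, stood at 3.89, 4.74 and 4.01 CPM in Rpl22+/+ and at 1.92, 2.11 and 1.60 CPM in Rpl22-/-. It was called lower (log2 fold change -1.17 ± 0.21, adjusted p = 0.00799; edgeR), except with a fold over 2 required (adjusted p = 0.545) and with both libraries numbered 3 left out (0.152). When the reads of the copies were summed before the fit, which removes the question of how they were divided, their log2 fold change was -1.06 (adjusted p = 0.00535; edgeR). Their summed level was 28.2 to 31.7 TPM in Rpl22+/+ and 13.7 to 15.8 TPM in Rpl22-/-. Bcl2a1b made up 46.6 to 48.0% of this sum in Rpl22+/+ and 38.9 to 40.5% in Rpl22-/-. The median log2 fold change of the 738 genes of chromosome 9 with a mean of at least 50 counts was 0.39, which only chromosome 4 exceeded (0.43), whereas Bcl2a1a and Bcl2a1b on it were lower.

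The starts of Bcl2a1b and Bcl2a1d are shown together with that of Mcl1, the most abundant member, because Bcl2a1b was lower in Rpl22-/-, Bcl2a1d is its copy and Mcl1 varied between libraries. The sequences are from RefSeq (GRCm38.p6) and run from 250 bases before to 50 after the start, on the strand of the gene. Capitals mark matches, on either strand, to the GC box GGGCGG and to a loose form of the AP-1 motif, TGANTCA, which do not overlap each other here. In the loose form N is any base, where the AP-1 site has C or G. Its matches here read TGAATCA, with A at N.
Bcl2a1b (chr9:89199023-89199322, plus strand): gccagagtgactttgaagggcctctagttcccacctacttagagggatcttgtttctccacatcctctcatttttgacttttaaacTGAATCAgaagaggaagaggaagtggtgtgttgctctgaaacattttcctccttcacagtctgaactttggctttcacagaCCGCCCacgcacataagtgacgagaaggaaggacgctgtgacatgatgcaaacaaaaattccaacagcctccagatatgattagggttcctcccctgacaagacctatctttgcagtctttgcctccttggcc
Bcl2a1d (chr9:88731801-88732100, minus strand): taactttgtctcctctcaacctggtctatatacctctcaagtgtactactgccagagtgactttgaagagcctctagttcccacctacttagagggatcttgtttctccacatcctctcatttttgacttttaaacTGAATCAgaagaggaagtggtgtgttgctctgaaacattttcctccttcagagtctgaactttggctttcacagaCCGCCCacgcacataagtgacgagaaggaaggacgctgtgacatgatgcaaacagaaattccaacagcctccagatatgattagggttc
Mcl1 (chr3:95658471-95658770, plus strand): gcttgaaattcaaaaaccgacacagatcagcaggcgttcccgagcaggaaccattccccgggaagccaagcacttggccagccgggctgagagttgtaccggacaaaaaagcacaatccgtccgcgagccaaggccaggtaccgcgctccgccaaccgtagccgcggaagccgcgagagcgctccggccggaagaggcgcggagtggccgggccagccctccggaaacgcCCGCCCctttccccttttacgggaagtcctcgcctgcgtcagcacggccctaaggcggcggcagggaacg
Of the 10 members 9 matched an entry, with 14 starts in all, and Pmaip1 did not. The loose AP-1 motif occurred at 2 of these 14 starts, those of the copies Bcl2a1b and Bcl2a1d, and at 7.81% of all 32851 starts. The GC box occurred at 10 of the 14 and at 35.7% of all starts, and the 14 include several starts of 1 gene that can overlap. A cAMP response element, TGACGTCA, occurred at 0 of the 14 and at 1.79% of all starts.

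Bcl2, the founding pro-survival member, stood at 41.0, 26.7 and 34.4 CPM in Rpl22+/+ and at 45.4, 50.4 and 49.5 CPM in Rpl22-/-. The Rpl22-/- libraries were close to each other and above every Rpl22+/+ library. The log2 fold change was 0.51 ± 0.18 (95% interval 0.09 to 0.93), which did not pass the test (adjusted p = 0.0778; edgeR) but did with a GC correction (0.57, adjusted p = 0.0212). Without Rpl22+/+ replicate 2, the lowest library, it was 0.32 (adjusted p = 0.0823). Bcl2l1, which encodes Bcl-xL, went the other way, with 23.4, 37.9 and 26.3 CPM in Rpl22+/+ and 21.8, 22.6 and 20 CPM in Rpl22-/-. Its groups did not overlap either, by a small margin, and the log2 fold change of -0.44 ± 0.20 did not pass (adjusted p = 0.159; edgeR) but did with a GC correction (-0.41, adjusted p = 0.0171). Without Rpl22+/+ replicate 2, here the highest library, it was -0.25 (adjusted p = 0.133). The ratio of Bcl2 to Bcl2l1 in TPM was 0.53, 0.208 and 0.401 in Rpl22+/+ and 0.639, 0.685 and 0.76 in Rpl22-/-. In all, the groups of 5 of 10 members did not overlap, and 46.1% of all genes tested had groups that did not overlap.

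**Figure D1:**
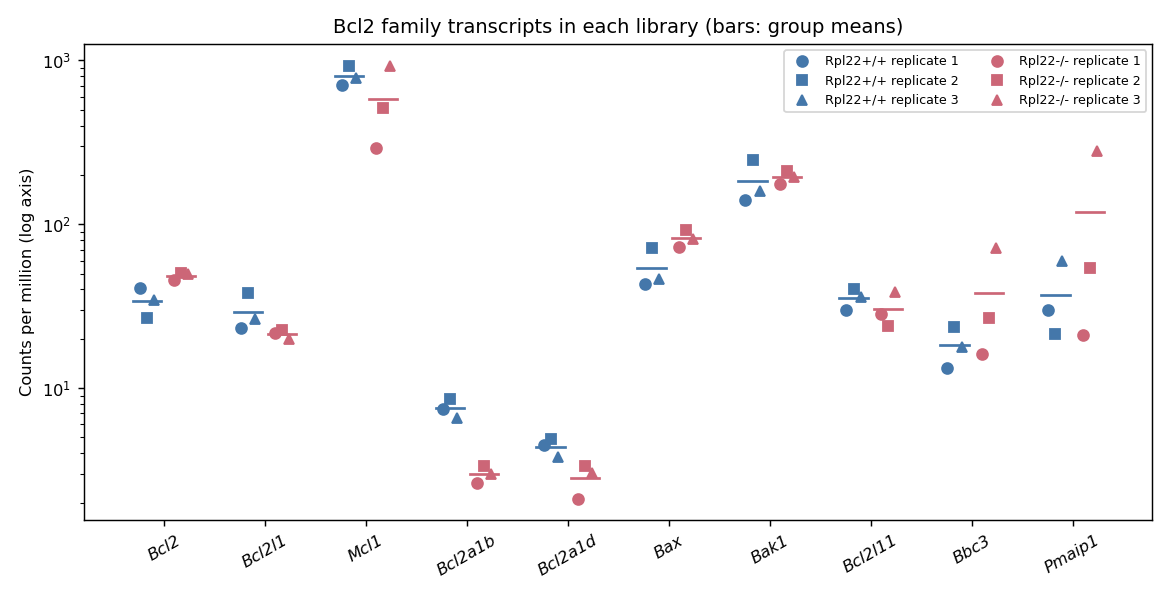
CPM (log axis) of the 10 members in each of the 6 libraries, with Rpl22+/+ in blue, Rpl22-/- in red, one symbol for each replicate number and a bar at each group mean. Bcl2a1b is separated between the groups, and Mcl1, Bbc3 and Pmaip1 are spread widely among the Rpl22-/- libraries.

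Both effectors were abundant. Bax stood at 43.3, 72.0 and 46.3 CPM in Rpl22+/+ and at 72.6, 92.1 and 80.7 CPM in Rpl22-/-. The highest Rpl22+/+ library, replicate 2, nearly reached the lowest Rpl22-/- library. The log2 fold change of 0.60 ± 0.22 did not pass the test (adjusted p = 0.093; edgeR). Without Rpl22+/+ replicate 2 it was 0.83 and passed (adjusted p = 0.00558), and it also passed in 6 alternatives that kept all libraries, among them no composition factor (0.75, adjusted p = 0.0136) and the GC correction (0.55, adjusted p = 0.00266). Bak1 stood at 141, 248 and 160 CPM in Rpl22+/+ and at 176, 212 and 195 CPM in Rpl22-/-, with overlapping groups. Its log2 fold change was 0.09 ± 0.23 (95% interval -0.46 to 0.64, adjusted p = 0.825; edgeR), and it ranged from -0.07 without Rpl22+/+ replicate 1 to 0.33 without Rpl22+/+ replicate 2.

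Mcl1, Bbc3 and Pmaip1 differed more among the Rpl22-/- libraries than between the groups. Mcl1 stood at 705, 922 and 785 CPM in Rpl22+/+ and at 290, 514 and 929 CPM in Rpl22-/-. The lowest and the highest value of all 6 libraries were both from Rpl22-/- cells. Bbc3, which encodes the p53 target Puma, stood at 13.3, 23.6 and 17.9 CPM in Rpl22+/+ and at 16.1, 26.6 and 71.6 CPM in Rpl22-/-. Pmaip1, which encodes Noxa, a BH3-only protein that binds Mcl1, stood at 29.8, 21.4 and 59.3 CPM in Rpl22+/+ and at 21.1, 54.3 and 281 CPM in Rpl22-/-. For all 3 genes Rpl22-/- replicate 3 was the highest library and Rpl22-/- replicate 1 the lowest of its group, by 3.20-fold for Mcl1, 4.45-fold for Bbc3 and 13.3-fold for Pmaip1. The SD of log2 CPM among the Rpl22-/- libraries was 0.84 for Mcl1, 1.10 for Bbc3 and 1.89 for Pmaip1, larger than for 92.2%, 95.9% and 99.2% of the genes tested.

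The genotype comparison of these genes moved with single libraries. The log2 fold change of Mcl1 was -0.48 ± 0.40 with all libraries (adjusted p = 0.437; edgeR) and -1 without Rpl22-/- replicate 3 (adjusted p = 0.079), and -0.16 without Rpl22-/- replicate 1 (adjusted p = 0.775). For Bbc3 it was 1.06 ± 0.54 (adjusted p = 0.2; edgeR) and 0.22 without Rpl22-/- replicate 3 (adjusted p = 0.712), and 1.43 without Rpl22-/- replicate 1 (adjusted p = 0.0903). For Pmaip1 it was 1.69 ± 0.92 (adjusted p = 0.228; edgeR) and 0.04 without Rpl22-/- replicate 3 (adjusted p = 0.978), against 2.19 without Rpl22-/- replicate 1 and 2.21 without Rpl22+/+ replicate 3. Bcl2l11, which encodes Bim, the BH3-only protein that removes aging neutrophils, stood at 29.8, 40.2 and 35.7 CPM in Rpl22+/+ and at 28.3, 24.0 and 38.6 CPM in Rpl22-/-. It too was highest in replicate 3 among the Rpl22-/- libraries, and its log2 fold change was -0.22 ± 0.21 (adjusted p = 0.514; edgeR).

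Other genes were high in the same library. All 12 immediate early genes examined, such as Fos and Jun, which cells switch on within minutes of a stimulus or of handling, were highest in replicate 3 among the Rpl22-/- libraries. Their summed level was 2840, 3670 and 3170 TPM in Rpl22+/+ and 1850, 4270 and 8520 TPM in Rpl22-/-. A list of 7 stress-response genes (251, 387 and 965 TPM in Rpl22-/-) and a list of 8 p53 targets (196, 192 and 382 TPM) had 6 members each that were highest there. Over all genes, 23.5% were highest in replicate 3 among the Rpl22-/- libraries. These 3 lists were chosen after the values had been seen, and their part in the levels of Mcl1, Bbc3 and Pmaip1 was not tested.

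**Figure D2:**
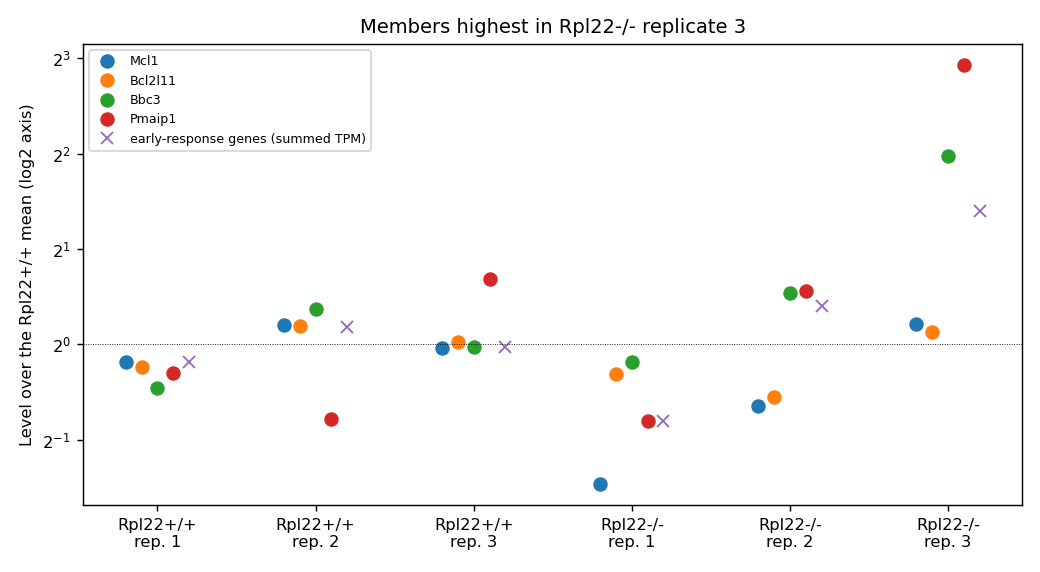
Level of Mcl1, Bcl2l11, Bbc3 and Pmaip1 (CPM) and of 12 early-response genes (summed TPM) in each library, divided by the Rpl22+/+ mean (log2 axis). Among the Rpl22-/- libraries each of them is highest in replicate 3.

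**Figure D3:**
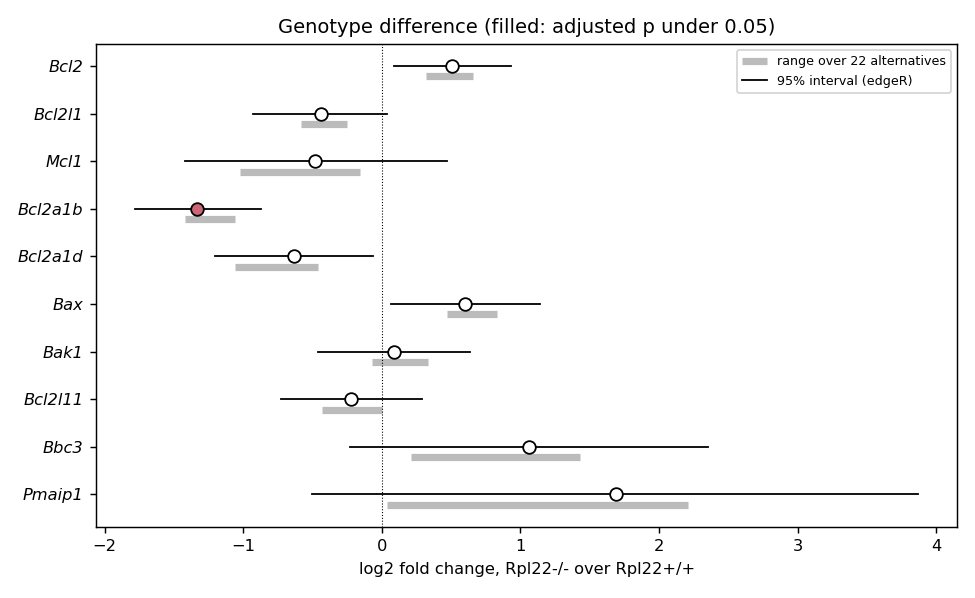
Log2 fold change of each member, Rpl22-/- over Rpl22+/+ (circles, filled where the adjusted p was under 0.05), with its 95% interval from edgeR (black lines) and its range over 22 alternative analyses (grey bars). Bcl2a1b alone is filled, and the interval is widest for Pmaip1.

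Per length of transcript, Mcl1 was the most abundant member in Rpl22+/+ cells (348, 362 and 358 TPM), followed by Bak1 (111 to 150 TPM) and Bax (77.7 to 101 TPM), and these 3 ranges did not overlap. The other members were at 3.98 to 33.5 TPM, in the order Pmaip1, Bcl2l1, Bbc3, Bcl2a1b, Bcl2l11, Bcl2a1d and Bcl2 by their means, and the ranges of neighbours in this order overlapped except between Bcl2l11 and Bcl2a1d. In Rpl22-/- cells Mcl1 was at 140, 225 and 434 TPM, so that its range overlapped those of Bax (132 to 149 TPM) and Bak1 (143 to 150 TPM). Mcl1 supplied 88.3, 89.2 and 89.2% of the summed TPM of the 5 pro-survival members in Rpl22+/+ and 80.9, 87.0 and 92.8% in Rpl22-/-. The sum was 394, 406 and 401 TPM in Rpl22+/+ and 173, 259 and 468 TPM in Rpl22-/-, and without Mcl1 it was 43.1 to 46.2 against 33.1 to 33.8 TPM. The 3 BH3-only members summed to 43.7, 38.3 and 64.8 TPM in Rpl22+/+ and to 40.4, 60.3 and 237 TPM in Rpl22-/-, and the effectors to 188 to 250 against 275 to 299 TPM. These sums are descriptions with no test.

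**Figure D4:**
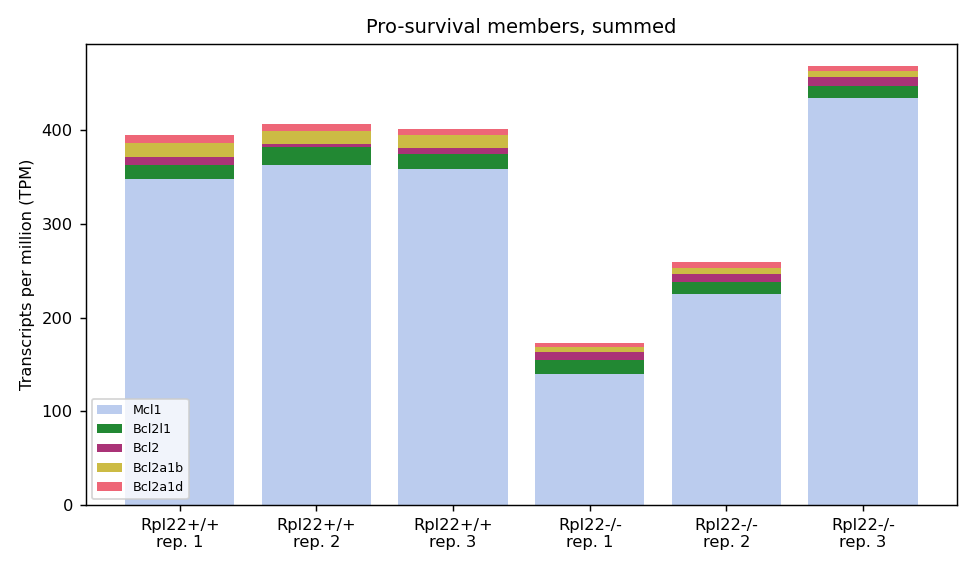
TPM of the 5 pro-survival members in each library, stacked from 0. Mcl1 makes up most of every bar, and the bars of the Rpl22-/- libraries run from 173 to 468 TPM, on either side of the 394 to 406 TPM of the Rpl22+/+ libraries.

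The main transcripts of Mcl1 and Bcl2l1 had overlapping shares in the 2 groups. Mcl1-201, the transcript with 3 exons and 993 coding bases, made up 76.9, 73.6 and 82.5% of the TPM of the gene in Rpl22+/+ and 84.0, 78.9 and 80.6% in Rpl22-/-. Mcl1-202, with 4 exons and 855 coding bases, made up the remainder, and the ranges overlapped. Bcl2l1-201 made up 69.4, 69.3 and 79.6% in Rpl22+/+ and 68.9, 74.4 and 75.4% in Rpl22-/-, and Bcl2l1-202, whose coding length is the same (699 bases), 7.57 to 19% against 9.87 to 19.6%. Of the 9 transcripts of Bcl2l1 listed 4 passed the filter. Bcl2l1-205, which did not, made up 0 to 0.294% in Rpl22+/+ and 0.535 to 1.16% in Rpl22-/-. Its reads were few, with 0, 0 and 6 in Rpl22+/+ and 4, 17 and 25 in Rpl22-/-. Of the others that did not pass, Bcl2l1-204, Bcl2l1-206 and Bcl2l1-207 were lower on average in Rpl22-/-, and Bcl2l1-209 had no reads. For Bak1, 2 transcripts annotated as subject to nonsense-mediated decay made up most of the TPM in both groups, with 54.0% ± 0.761 and 54.4% ± 2.09 for Bak1-204 and 31.2% ± 0.56 and 31.1% ± 2.55 for Bak1-201. Among 22 member transcripts with a mean of at least 50 reads the shares of 3 did not overlap between the groups, and 20.1% of all such transcripts had shares that did not. Bax-203 made up 17.8 to 22.3% of Bax in Rpl22+/+ and 24.5 to 27.0% in Rpl22-/-, and the main transcript, Bax-201, 67.9 to 75.3% against 63.6 to 66.0%. The remaining one was Bak1-203, at 12.0% ± 0.199 and 11.5% ± 0.241.

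Tested one by one, 1 of the 30 member transcripts with enough reads was lower in Rpl22-/- and 0 were higher. The lower one was Bcl2a1b-201 (log2 fold change -1.39 ± 0.27, adjusted p = 0.0387; edgeR). The call on Bcl2a1b-201 was lost in 7 of 12 alternatives, among them 5 of the 6 that left out a single library, and held without Rpl22+/+ replicate 2. Over all 52589 transcripts tested, 3.15% were lower and 2.65% higher. For Mcl1-201 the log2 fold change was -0.52 ± 0.45 (adjusted p = 0.61; edgeR). A test of isoform use gave an adjusted p of 1 for each of the 8 members with more than 1 transcript. On simulated data the transcript test had little power in a draw dominated by transcripts less abundant than the main ones of the members, and most calls of the isoform test were false, so neither shows that isoforms were used alike.

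**Figure D5:**
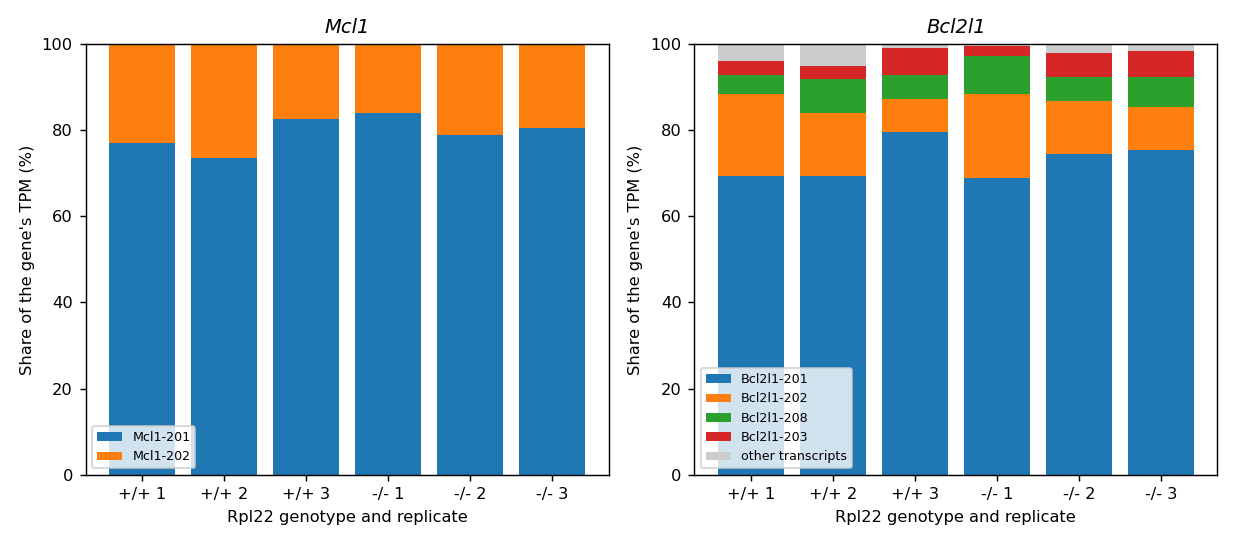
Share of the TPM of Mcl1 (left) and Bcl2l1 (right) supplied by each transcript in the 6 libraries, as stacked bars that add up to 100%. Mcl1-201 supplies 73.6 to 84.0% and Bcl2l1-201 68.9 to 79.6%, with no separation of the groups.

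Genes that act around the family were taken from 7 lists (other family members, caspases and the apoptosome, inhibitors of apoptosis, death receptors, mitochondrial partners, turnover of Mcl1, and regulators of BH3-only genes), and of 68 tested 4 were higher and 11 lower at any size, where 13.7% and 13.8% of all genes were. Downstream of the effectors, Casp6, an executioner caspase, fell by 1.35 on the log2 scale (adjusted p = 0.00712; edgeR) and Apaf1, the scaffold of the apoptosome, by 0.85 (adjusted p = 0.00344; edgeR), while Htra2, a mitochondrial protease, was higher by 0.69 (adjusted p = 0.0135; edgeR). Htra2 missed the threshold without Rpl22+/+ replicate 1 (adjusted p = 0.0548), Rpl22+/+ replicate 3 (0.067) or Rpl22-/- replicate 1 (0.0503). Of 9 inhibitors of apoptosis 2 were lower, Birc3 (log2 fold change -1, adjusted p = 0.00379; edgeR) and Naip2 (-0.88). Birc3 did not pass on log2(TPM + 1) (adjusted p = 0.0654) and log2(TPM + 0.1) (0.0645), with a fold over 2 required, and with both libraries numbered 3 left out (0.0984). Of 9 death receptor genes Tnfrsf10b, the mouse TRAIL receptor, was higher at a low level. It stood at 1.34 to 1.47 CPM in Rpl22+/+ and 4.76 to 5.19 CPM in Rpl22-/-. The rise was 1.81 ± 0.18 on the log2 scale (adjusted p = 0.000834; edgeR). Tnfrsf10b passed in 21 of 22 alternatives and narrowly missed the threshold with both libraries numbered 3 left out (adjusted p = 0.0519; edgeR).

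Of 13 other family members tested, Bcl2l12 (log2 fold change 0.86) and Bcl2l14 (0.94) were higher and Bcl2a1a and Bnip3l (-0.73) were lower, and 9 did not pass. Bcl2l12 and Bcl2l14 missed the threshold without Rpl22+/+ replicate 1 (adjusted p = 0.0615 and 0.0902), Rpl22+/+ replicate 3 (0.0667 and 0.102) or Rpl22-/- replicate 3 (0.0586 and 0.0707), and Bcl2l14 also without Rpl22-/- replicate 2 (0.0578). Of 7 regulators of BH3-only genes, Foxo3, a transcription factor that activates Bcl2l11 and Bbc3, was lower (104, 133 and 107 against 54.4, 56.9 and 47.7 CPM, log2 fold change -1.11 ± 0.15, adjusted p = 0.00285; edgeR), as was Foxo1 (-0.75). Neither Bcl2l11 nor Bbc3 passed the test. Of 6 genes for the turnover of Mcl1, Gsk3b, a kinase that marks the Mcl1 protein for breakdown, was lower (-0.76), and of 10 mitochondrial partners Mff, a fission factor, was lower (-0.62). Foxo1 missed the threshold without Rpl22-/- replicate 1 (adjusted p = 0.0605) or replicate 3 (0.0669), and Mff without Rpl22+/+ replicate 3 (0.0513) or Rpl22-/- replicate 3 (0.0593). With both libraries numbered 3 left out, or a fold over 2 required, Casp6, Apaf1, Naip2, Bnip3l, Foxo3 and Gsk3b missed the threshold as well. Genes of these lists that changed by less than 2-fold were named after their values had been seen.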

How the data were processed

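Poly(A) RNA of sorted splenocytes was sequenced as stranded paired-end libraries. Per the labels, the authors used Trimmomatic for trimming and Salmon for quantification, on GRCm39 (versions not given in the sources used here). The deposited tables gave estimated counts (NumReads) and TPM per transcript for 6 libraries. The deposited table of the authors' DESeq2 comparison supplied gene positions and a mean of normalized counts (signal), while its fold changes and p-values were not used.

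Transcripts were matched by ID to GENCODE vM21 (GRCm38), which covered 98.0 to 98.1% of reads and 49.2% of the transcripts listed, then summed to genes and rounded. The mean of counts divided by size factors was 0.974 to 0.999 times the authors' base mean for the members. Genes were tested with edgeR 4.0.16 (R 4.3.3): filterByExpr, TMM, the quasi-likelihood F test and Benjamini-Hochberg adjustment over all 16656 genes, with a threshold of 0.05. Called genes also had an absolute log2 fold change over 1. CPM used TMM library sizes. Transcripts were tested in the same way, and isoform use with diffSpliceDGE. Alternatives used DESeq2 1.42.0 and limma 3.58.1, with log2(TPM + 1) and log2(TPM + 0.1).

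The main gene, transcript and isoform tests were tried on simulated counts, as were limma-voom, DESeq2 and the replicate block for genes. The other alternatives were not simulated, among them the GC correction, the offset for transcript length and the fits on log2 TPM, so their false calls are unknown. The gene test recovered most of the 4-fold and few of the 2-fold changes, so smaller changes of the members can be missed. The transcript test recovered none of these sizes in transcripts drawn down to low counts. It was then simulated again with larger changes in abundant transcripts, most of the largest of which it recovered. The isoform test made mostly false calls in both simulations, and DESeq2 made more false calls than its threshold allows.

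The members and gene lists were chosen with earlier results of these data known. The rule for named genes was all 10 members, Rpl22, every Bcl2a1 copy and up to 4 called genes with the largest change per list. One result that this rule would name is not reported here. Bcl2a1c had almost no reads. Replicate numbers were not taken to pair libraries. Counting error alone is small at this depth for genes with many reads. It is larger for Bcl2a1b, Bcl2a1d and Bcl2a1a, which had 98, 79 and 72 reads in Rpl22-/- replicate 1. The reads carried no molecular identifiers that would count molecules.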

Additional observations from a re-analysis of the deposited data

How the results depend on the processing

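Over 22 alternatives Bcl2a1b was lower in all and passed in 20, and Mcl1, Bbc3, Pmaip1, Bcl2l11 and Bak1 passed in 0. Rpl22 was also lower in all (log2 fold change -1.43 to -1.06) and passed in 20. Bax passed in 7, Bcl2 and Bcl2l1 in 2 each (both with the GC correction) and Bcl2a1d in 1 (copies summed). The cause of the changes below was not tested. The count of members higher at any size went from 0 to 1 with no composition factor, with log2(TPM + 1), with log2(TPM + 0.1) and with the replicate block, and to 2 with the GC correction and with the replicate block and GC correction together. It ranged from 0 to 1 with single libraries left out. The count lower went from 1 to 2 with the GC correction, with the block and GC correction, and with the Bcl2a1 copies summed (also over 2-fold), where 1 summed value stands for both copies, and to 0 with a minimum fold of 2 and with both libraries numbered 3 left out (also over 2-fold), the last chosen after seeing the data. Bak1 ranged from -0.07 (without Rpl22+/+ replicate 1) to 0.33 (without Rpl22+/+ replicate 2), and was 0.00 without Rpl22+/+ replicate 3 and with both libraries numbered 3 left out. With single libraries left out, Bcl2l1-203 ranged from -0.55 to 0.10 (without Rpl22-/- replicate 1) and Bcl2l1-208 from -0.71 to 0.27 (without Rpl22+/+ replicate 2). Member transcripts higher were 1 with log2(TPM + 1) and 0 to 1 with single libraries left out. Member transcripts lower were 0 with no filter and with the replicate block, and 0 to 1 with single libraries left out (0 in 5 of 6).

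Other apoptosis genes higher at any size (4) became 12 with no composition factor, 10 with log2(TPM + 1), 11 with log2(TPM + 0.1), 8 with an offset for transcript length, 11 with the GC correction, 12 with the block and GC correction, 1 with a minimum fold of 2 and 0 with both libraries numbered 3 left out, and were 1 to 10 with single libraries left out. Those lower (11) became 19 with the block and GC correction, 0 with a minimum fold of 2 and 0 with both libraries numbered 3 left out, and were 9 to 19 with single libraries left out. Over 2-fold, those higher (1) became 3 with no composition factor, 2 with log2(TPM + 0.1), 2 with the GC correction, with and without the block, and 0 with both libraries numbered 3 left out, and were 1 to 3 with single libraries left out. Those lower over 2-fold (5) became 3 with no composition factor and with log2(TPM + 0.1), 1 with log2(TPM + 1), and 0 with a minimum fold of 2 and with both libraries numbered 3 left out. With no composition factor all genes had a median of 0.19 (log2) in place of 0.07. With estimated counts in place of TPM, the share of pro-survival transcripts was 91.4% for Mcl1 in Rpl22+/+, and 3.98% and 8.65% for Bcl2 in Rpl22+/+ and Rpl22-/-.

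Deviations from the group means of same-numbered libraries correlated at 0.479, 0.634 and 0.0974, and each Rpl22-/- library correlated best with its own number, but Rpl22+/+ replicate 3 did so with Rpl22-/- replicate 1 (0.357). The last same-numbered pair was under 0.1, so the numbers were not taken as pairs, which the labels leave undecided. With the replicate block Bax passed (log2 fold change 0.63, adjusted p = 0.021).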
